A study of Mus musculus with 3 samples.

Results

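The array carried 649 probes whose names begin with mouselincRNA, out of 60915 probe names in all. They were taken as every non-control probe with that prefix in the 3 array files, and the number and the sign (+ or -) in each name were read as a locus and one of its strands. Each of them had a single spot per array. The 649 probes covered 332 loci, of which 317 had a probe for each strand, 5 had a + probe alone and 10 had a - probe alone. In all there were 322 + probes and 327 - probes. The names carry no gene, transcript or coordinate in the files used here, so the loci are given by their names alone and no sequence is shown.

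Long intergenic noncoding RNAs (lincRNAs) are transcripts longer than those of the small RNA classes, made from DNA between protein-coding genes and not translated into known proteins. Many are present at low levels and in few cell types, and some act on chromatin, on transcription of neighbouring genes or on RNA stability. In myeloid cells individual lincRNAs are known to affect differentiation and the inflammatory response. A probe pair with one probe per strand reads the transcripts of each strand of a locus separately.

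The arrays held RNA of PMN-MDSCs (polymorphonuclear myeloid-derived suppressor cells), which resemble neutrophils and can restrain T cells, from male C57BL/6 mice aged 6 to 8 weeks. An MDSC isolation kit was followed by sorting on CD11b and Ly6G. The first array held cells from tumor tissue, the second cells from tumor-bearing spleen and the last cells from the spleens of wild-type mice, which bore no tumor. Tumor and wild-type spleen thus differed in tissue as well as in tumor status, tumor and tumor-bearing spleen in tissue, and the spleens in tumor status. The tumor type and the number of mice behind each array are not given in the sources used here. Defining markers of PMN-MDSCs, or of macrophages, monocytes and lymphocytes, are not paired with a probe in the files, and cell purity could therefore not be checked. The Ly6G antibody clone named in the labels is usually sold against Gr-1, which also covers Ly6C. In such bulk samples fewer cells of a type and less RNA per cell cannot be told apart.

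Because each group was 1 array, nothing below was tested, and 2-fold serves only to describe size. Signals are Agilent processed signals in fluorescence units, which were not scaled between arrays. A level is a probe's log2 signal from which the array's 75th percentile was subtracted; this percentile was 524 units for tumor, 509 for tumor-bearing spleen and 698 for wild-type spleen, and log2 differences are differences of such levels. A difference was taken only for a probe well above background, by the flag of the extraction software, on both arrays. The ± value is the SD between repeated spots of other probes, controls among them, in the same broad class of level, combined over the 2 arrays. From the dimmest class to the brightest, these SDs rest on 5, 15, 7, 12 and 66 pairs of probe and array. For a control probe, the ± value comes from its own spots. The ± value is technical and covers neither mice nor hybridisations. Brightness also depends on the probe, so the signals of different probes are not ranked as amounts of RNA.

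The mouselincRNA probes were detected less often than the probes of the array as a whole, and at like shares in each sample. Well above background were 332 of 649 (51.2%) with tumor cells, 331 (51.0%) with cells of tumor-bearing spleen and 328 (50.5%) with cells of wild-type spleen. Over all probes of the array the shares were 76.1%, 73.7% and 76.8%. Spots of negative control probes, which should carry no target, were flagged in the same way in 7.33%, 5.00% and 6.00% of 300 spots. Probes of another lincRNA set on the array, with the prefix humanlincRNA, were detected at 46.3%, 47.0% and 46.7%. A smaller set of 83 probes, with the prefix MM9LINCRNAEXON, was detected more often, at 67.5%, 62.7% and 60.2%.

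Detection was mostly shared between the samples. On all 3 arrays 256 members (39.4%) were well above background, against 67.7% of all probes, and on none 252 (38.8%), against 16.9%. The other 141 (21.7%) were detected on 1 or 2 arrays, against 15.4% of all probes. Among them 14 (2.16%) were detected with tumor cells alone, 21 (3.24%) with tumor-bearing spleen alone and 24 (3.698%) with wild-type spleen alone, where the shares of all probes were 2.17%, 1.56% and 3.73%. A further 34 (5.24%, against 2.61% of all probes) were detected on both arrays from tumor-bearing mice but not with wild-type cells. Another 20 (3.08%, against 1.75%) were detected on both spleen arrays but not with tumor cells, and 28 (4.31%, against 3.56%) with tumor and wild-type cells but not with tumor-bearing spleen.

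Most members were dim and a few were very bright. The median processed signal was 15.9 units for tumor, 16.7 for tumor-bearing spleen and 18.1 for wild-type spleen. The highest reached 80833, 74018 and 61802 units. Signals of 1000 units or more were read from 16, 24 and 23 members. The 3 brightest members of each array held 62.5%, 50.2% and 50.7% of the summed signal of the set.

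The strands of a locus were read separately at 317 loci. With tumor cells, tumor-bearing spleen and wild-type spleen the + probe was well above background at 51.4%, 52.1% and 51.4% of them and the - probe at 52.4%, 51.1% and 50.8%. Both probes were at 78 (24.6%), 80 (25.2%) and 78 (24.6%), which is close to the product of the separate shares (26.9%, 26.6% and 26.1%). One strand alone was detected at 173 (54.6%), 167 (52.7%) and 168 (53.0%) loci. The strand sign was evenly divided among them, with the + probe alone at 85, 85 and 85 loci and the - probe alone at 88, 82 and 83.

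**Figure D1:**
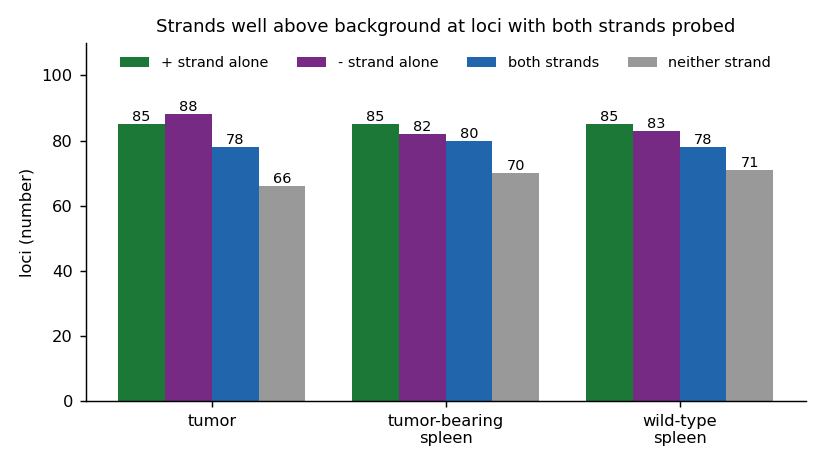
Number of loci (vertical axis) at which both probes, the + probe alone, the - probe alone or neither was well above background on each of the 3 arrays, for the 317 loci with a probe for each strand. The 4 classes have nearly the same size on every array, and loci with 1 detected strand number 173, 167 and 168.

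The detection call of a locus was the same on all 3 arrays at 189 of the 317 loci. Both strands were detected at 47 of these, the + strand alone at 48, the - strand alone at 56 and neither at 38. A single strand was detected on at least 1 array at 229 loci, of which only those 48 and 56 kept that call on all 3. At 6 loci the single detected strand was + on one array and - on another. These were mouselincRNA0101, mouselincRNA0108, mouselincRNA0325, mouselincRNA0813, mouselincRNA0941 and mouselincRNA1049, named here because they are the whole count. Several of these calls were close to background. With tumor cells the - probes of mouselincRNA0101 and mouselincRNA0813 read 15.78 and 15.87 units. Both lay below the 95th percentile of negative control spots on that array, 15.95 units. The other single-strand calls at these loci lay above that percentile on their arrays. Negative control spots were flagged at the rates given above, and their part in these calls was not tested.

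The 5 brightest members by mean level over the 3 arrays were all - probes. mouselincRNA0161-_P1 read 80833 units with tumor cells, 74018 with tumor-bearing spleen and 61802 with wild-type spleen. It was bright on every array, and its log2 differences from wild-type spleen were 0.80 ± 0.10 for tumor and 0.71 ± 0.10 for tumor-bearing spleen, below 2-fold. mouselincRNA0772-_P1 read 19598, 20703 and 20132 units in the same order and was likewise within 2-fold between all 3 samples.

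Other bright members differed more between the samples. mouselincRNA1188-_P1 read 15203 units with tumor cells, 61579 with tumor-bearing spleen and 31996 with wild-type spleen. It was highest in tumor-bearing spleen, by 1.40 ± 0.10 over wild-type spleen, and in tumor cells it lay 2.06 ± 0.10 below tumor-bearing spleen, on the log2 scale. mouselincRNA0158-_P1 had the same order, with 3830, 26759 and 9649 units. Its log2 difference was 1.93 ± 0.15 between tumor-bearing and wild-type spleen and -2.85 ± 0.15 between tumor and tumor-bearing spleen. mouselincRNA0305-_P1 read 5666, 10410 and 10687 units, and its differences stayed below 2-fold.

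**Figure D2:**
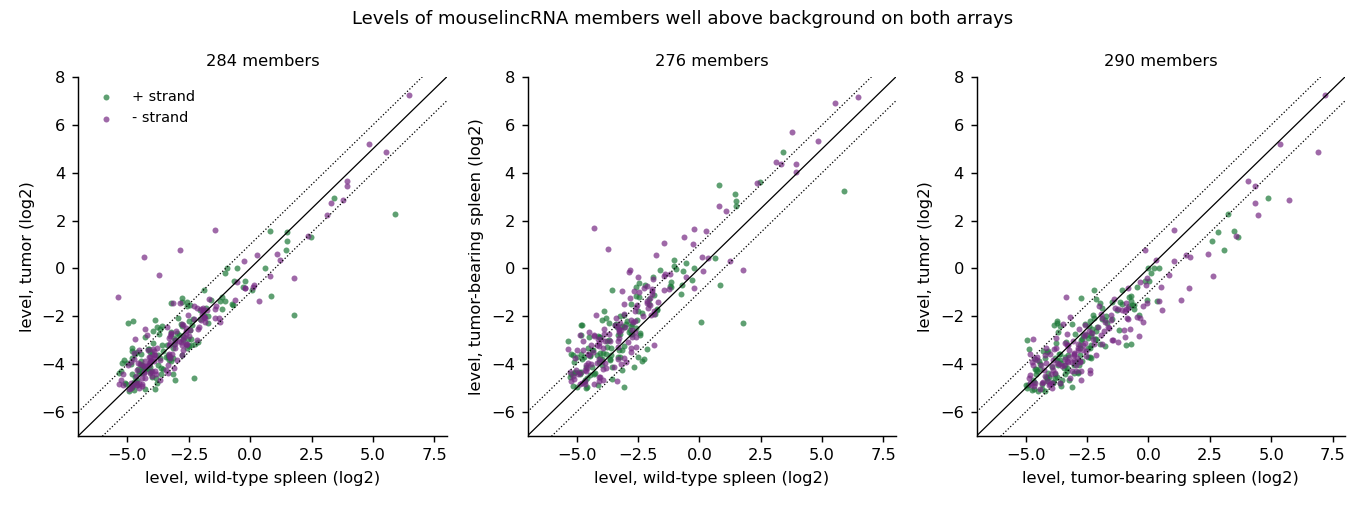
Level of each lincRNA probe (log2 signal minus the array's 75th percentile) on one array against another, for probes well above background on both, with + probes in green and - probes in purple. Lines mark equality and 2-fold differences, and most points of the tumor and wild-type pair lie between the 2-fold lines while many points lie on the tumor-bearing side in the panels with that array.

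The first comparison set tumor cells against cells of wild-type spleen. Few members differed, and neither direction prevailed in the median. Of 284 members measured on both arrays, 32 (11.3%) read 2-fold or more above wild-type spleen in tumor cells, where 19.6% of all probes were, and 15 (5.28%) at least 2-fold lower, where 18.3% of all probes were. When arrays were scaled to the median of their detected probes, 27 were higher (9.51%, against 17.0% of all probes) and 25 lower (8.80%, against 21.0%). The median log2 difference was 0.00, with quartiles of -0.44 and 0.46, and over all probes it was 0.02. At least 4-fold higher were 7 members (2.46%, against 7.96% of all probes) and at least 4-fold lower 5 (1.76%, against 7.79%).

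The 5 members farthest above wild-type spleen in tumor cells were - probes. mouselincRNA1099-_P1 read 736 units with tumor cells, 1668 with tumor-bearing spleen and 35.3 with wild-type spleen. It was thus bright in both samples of tumor-bearing mice and dim in wild-type cells, with a log2 difference of 4.80 ± 0.34 for tumor and 6.02 ± 0.34 for tumor-bearing spleen. After normexp, a model-based background correction that shrinks differences of dim probes, these were 3.37 and 4.47. Normexp was run on median spot and background signals, not on processed signals, and 50 units were added. That addition by itself shrinks differences of dim probes. mouselincRNA0996-_P1, with 428, 898 and 53.0 units, showed the same order and differed by 3.43 ± 0.49 and 4.54 ± 0.39, or by 2.37 and 3.35 after normexp. mouselincRNA0063-_P1 read 896, 458 and 97.0 units and was highest in tumor cells, 3.62 ± 0.39 above wild-type spleen (2.87 after normexp).

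mouselincRNA0336-_P1 was graded across the samples, with 227 units in tumor cells, 49.7 in tumor-bearing spleen and 16.9 in wild-type spleen. Tumor lay 4.16 ± 0.45 above wild-type spleen and 2.15 ± 0.49 above tumor-bearing spleen on the log2 scale, or 2.29 and 1.39 after normexp. Its wild-type signal was close to background. mouselincRNA1065-_P1 read 1594, 1059 and 256 units, with both samples of tumor-bearing mice above the wild-type sample and a tumor difference of 3.05 ± 0.35. mouselincRNA0467+_P1, the first + probe in this order, read 108, 39.0 and 22.2 units and differed by 2.70 ± 0.48, or by 1.26 after normexp.

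Members lower in tumor cells than in wild-type spleen were led by 2 + probes that were bright in wild-type cells. mouselincRNA1040+_P1 read 134 units with tumor cells, 105 with tumor-bearing spleen and 2380 with wild-type spleen. It was bright in wild-type cells alone, and its log2 difference was -3.74 ± 0.35 for tumor and -4.04 ± 0.39 for tumor-bearing spleen. mouselincRNA0706+_P1 read 2570, 4857 and 41692 units and was among the brightest members in wild-type cells. It differed by -3.61 ± 0.15 for tumor and by -2.65 ± 0.15 for tumor-bearing spleen.

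mouselincRNA1171+_P1 came next, with 21.9, 36.8 and 144 units and a tumor difference of -2.31 ± 0.48, which was -0.85 after normexp. mouselincRNA0052-_P1 read 400, 492 and 2412 units and mouselincRNA0478+_P1 read 234, 313 and 1255 units. Both were highest in wild-type cells, with tumor differences of -2.18 ± 0.35 and -2.01 ± 0.35.

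A further 48 members were well above background with tumor cells but not with wild-type cells, and for 17 (2.62% of the 649, against 2.44% of all probes) the bound on the difference was 2-fold or more. Another 44 were detected with wild-type cells but not with tumor cells, and for 12 (1.85%, against 2.52% of all probes) the bound was 2-fold or more. The bound sets the bright signal against the higher of the dimmest detected level on the other array and the dim probe's own level. It carries no spot error, and no value after normexp is given for it. mouselincRNA1514+_P1 read 218 units with tumor cells, 116 with tumor-bearing spleen and 13.2 with wild-type spleen, where it was not well above background. By this bound it was at least 17.5-fold higher with tumor cells and at least 9.57-fold higher with tumor-bearing spleen. mouselincRNA0552+_P1 was the reverse, at 7.52, 8.24 and 260 units and well above background in wild-type cells alone. By the same bound it was at least 14.9-fold lower with tumor cells and at least 11.8-fold lower with tumor-bearing spleen.

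The second comparison was between the spleens of tumor-bearing and wild-type mice, one organ in both groups. Here the set leaned upward. Of 276 members measured on both arrays, 87 (31.5%) read 2-fold or more above wild-type in tumor-bearing spleen, against 27.4% of all probes, and 15 (5.43%) at least 2-fold lower, against 21.9% of all probes. The median log2 difference was 0.61 for the members and 0.29 for all probes, and 209 members (75.7%) were above 0. At least 4-fold higher were 18 members (6.52%, against 8.78% of all probes) and at least 4-fold lower 3 (1.09%, against 11.6%). Among members detected on only one of the spleen arrays, the bound was 2-fold or more upward in 27 (4.16% of the 649, against 2.33% of all probes) and downward in 7 (1.08%, against 3.19%).

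The counts depended on the processing, with 49 higher and 5 lower after normexp, at a median of 0.46. The share of higher members was then 17.8%, below the 19.8% of all probes. The files record a multiplicative detrending, a correction of signal trends across the array, for the tumor and wild-type arrays but not for the tumor-bearing spleen array. Without it 85 members were higher (30.8%, against 26.4% of all probes) and 16 lower (5.80%, against 22.4%).

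Control probes detected at every spot also read higher on this array. Of 10 control probes well above background at every spot, leaving out those for the housekeeping genes Gapdh and Pgk1, all 10 read higher with tumor-bearing than with wild-type spleen, and 7 by 2-fold or more. Their median log2 difference was 1.15. They include GE_BrightCorner, a bright grid-corner control, with 19701 units on the tumor array, 46216 on the tumor-bearing spleen array and 24252 on the wild-type array (1.40 ± 0.32, 14 spots). Against the tumor-bearing spleen array all 10 were lower on the tumor array, 6 at least 2-fold, with a median of -1.01. Between tumor and wild-type arrays their median was 0.10 and none differed by 2-fold. Control probes that missed this mark of detection were left out, and between the spleens they went both ways. Among them (+)E1A_r60_a107 read 8.33 units with tumor-bearing and 268 with wild-type spleen (-4.74 ± 0.79). DCP_1_7 read 31.6 and 7.97 units (2.48 ± 0.50). Probes at both ends of the Pgk1 and Gapdh transcripts bear on RNA length, since labelling from the 3′ end loses the 5′ end first in shortened RNA. Mouse-PGK1_5 differed by -1.93 ± 0.10 and Mouse-PGK1_3 by -0.56 ± 0.06 between tumor-bearing and wild-type spleen, and by -1.98 ± 0.08 and -0.85 ± 0.04 between tumor and wild-type spleen. At Gapdh the ends lay close together, with Mouse-GAPDH_5 at 0.13 ± 0.08 and Mouse-GAPDH_3 at 0.29 ± 0.06 between the spleens, and -0.60 ± 0.07 and -0.55 ± 0.06 between tumor and wild-type spleen. The part of these differences in the values of the lincRNA probes was not tested.

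Beyond mouselincRNA1099-_P1 and mouselincRNA0996-_P1, several members were highest in tumor-bearing spleen. mouselincRNA0597-_P1 read 194 units with tumor cells, 493 with tumor-bearing spleen and 97.4 with wild-type spleen, a log2 difference of 2.79 ± 0.49 between the spleens (2.12 after normexp). mouselincRNA0118+_P1 read 1562, 5751 and 1232 units and differed by 2.68 ± 0.19. mouselincRNA1377+_P1 read 56.9, 269 and 58.7 units and differed by 2.65 ± 0.49, or by 1.78 after normexp. In the last 2 the tumor sample lay within 2-fold of wild-type spleen, so that tumor-bearing spleen stood apart from both others.

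The members farthest below wild-type spleen, after mouselincRNA1040+_P1 and mouselincRNA0706+_P1, were mouselincRNA0735+_P1 and mouselincRNA1188+_P1, followed by mouselincRNA0052-_P1 at -1.84 ± 0.35. mouselincRNA0735+_P1 read 280, 109 and 725 units and was lowest in tumor-bearing spleen, by -2.28 ± 0.39. mouselincRNA1188+_P1 read 65.2, 16.3 and 83.7 units and differed by -1.90 ± 0.48, or by -0.37 after normexp. Its signal in tumor-bearing spleen was close to background. Of the 134 + probes measured, 39 (29.1%) were higher and 12 (8.96%) lower. Of the 142 - probes, 48 (33.8%) were higher and 3 (2.11%) lower. The shares of all probes were 27.4% and 21.9%. Whether the strands differ was not tested.

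The third comparison set cells of the tumor against cells of tumor-bearing spleen, both from tumor-bearing mice. Members were mostly lower in tumor cells. Of 290 measured on both arrays, 14 (4.83%) were at least 2-fold higher, against 14.2% of all probes, and 73 (25.2%) at least 2-fold lower, against 14.7% of all probes. The median log2 difference was -0.47, and -0.04 for all probes. At least 4-fold higher was 1 member (0.345%, against 2.72% of all probes) and at least 4-fold lower were 14 (4.83%, against 3.45%). The bound was 2-fold or more upward in 8 (1.23% of the 649, against 1.67% of all probes) and downward in 12 (1.85%, against 1.15%). After normexp 1 was higher and 35 (12.1%) were lower, at a median of -0.24, against 9.32% of all probes that were lower. The comparison shares its tumor-bearing spleen array with the one before.

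The member farthest below tumor-bearing spleen in tumor cells was mouselincRNA0712-_P1, with 424 units in tumor cells, 3123 in tumor-bearing spleen and 1227 in wild-type spleen. Its log2 difference was -2.92 ± 0.35, slightly larger than that of mouselincRNA0158-_P1 given above. mouselincRNA0299-_P1 read 213, 1263 and 456 units and differed by -2.61 ± 0.35. Both had their lowest signal in tumor cells and their highest in tumor-bearing spleen. Apart from mouselincRNA0336-_P1, the 7 others of the 8 members farthest above tumor-bearing spleen in tumor cells were below 2-fold after normexp. One of them, mouselincRNA1486-_P1, read 68.5, 19.3 and 27.3 units and differed by 1.79 ± 0.48, or by 0.35 after normexp.

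The lean toward tumor-bearing spleen was greater in brighter members. The members were divided by their mean level over the arrays, with class edges chosen after the values were seen, and set beside the probes outside the lincRNA-named sets (mouselincRNA, humanlincRNA and MM9LINCRNAEXON). Below a level of -4, 12.9% of 70 members read 2-fold or more higher in tumor-bearing than in wild-type spleen, and 14.7% of those probes were in that class. From -4 to -2 the shares were 31.4% of 121 members and 22.9% of those probes, and from -2 to 0 they were 38.3% of 60 and 30.4%. At a level of 0 or more they were 68.0% of 25 members and 32.1% of those probes, but 71.4% of 42 humanlincRNA probes, so this high share was not a trait of the mouselincRNA probes alone. The class uses the mean over all 3 arrays, so a high value in tumor-bearing spleen itself moves a member toward a brighter class. These shares are therefore a description.

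**Figure D3:**
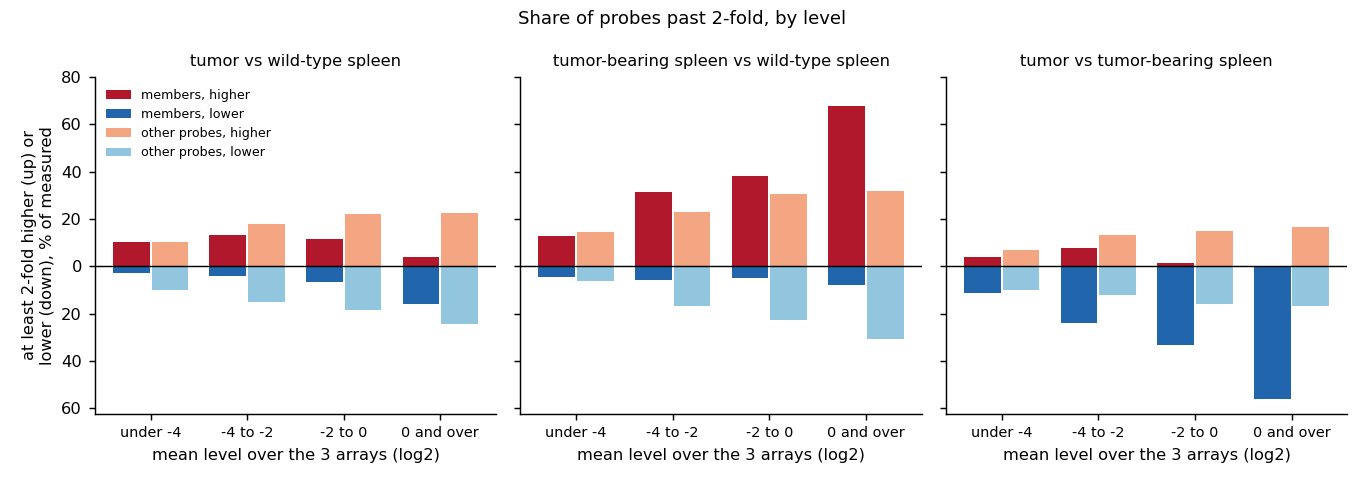
Percent of probes at least 2-fold higher and lower in each comparison (vertical axis), by class of mean level (horizontal axis), for the mouselincRNA probes (members) and for probes outside the 3 lincRNA-named sets (other probes). In the class at 0 or more, 68.0% of the 25 members are higher in tumor-bearing than in wild-type spleen and 56.0% are lower in tumor than in tumor-bearing spleen, against 32.1% and 16.9% of the other probes. The humanlincRNA probes, not drawn, had 71.4% and 81.0%.

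In that brightest class 17 of the 25 members read 2-fold or more higher in tumor-bearing than in wild-type spleen and 2 lower, with a median log2 difference of 1.27, against 0.13 for probes outside the lincRNA-named sets and 1.31 for humanlincRNA probes. Between tumor and tumor-bearing spleen 14 were lower and 0 higher, with a median of -1.43 against 0.10 and -1.93. Between tumor and wild-type spleen 1 was higher and 4 were lower, with a median of -0.57 against -0.15 and -0.58. The control probes given above had medians of 1.15, -1.01 and 0.10 in these 3 comparisons. Most of them were far dimmer than this class, such as DCP_22_4 at 22.6, 47.8 and 28.8 units for tumor, tumor-bearing and wild-type spleen. Their medians are therefore not matched to the class by level. The brighter GE_BrightCorner and ERCC-00062_278 differed by 1.40 and 1.39 between the spleens and by -1.28 and -2.05 between tumor and tumor-bearing spleen. Between tumor and wild-type spleen they differed by 0.12 and -0.66. The part of the control probes in the members' values was not tested. In the class, the median between the spleens ran from 1.11 to 1.35 and that between tumor and tumor-bearing spleen from -1.44 to -1.36 over the alternatives of scaling, background and filter. Between tumor and wild-type spleen it ran from -0.30, after quantile normalization and in the authors' table, to -0.71, and the count of lower members from 3 to 8.

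Over all levels, 161 of the 256 members detected on all 3 arrays (62.9%) were highest in tumor-bearing spleen, against 41.6% of all probes, 72.9% of humanlincRNA probes and 64.4% of MM9LINCRNAEXON probes. Of these, 82 had tumor and 79 wild-type spleen as the lowest sample, and after normexp 63 and 122. Which was lowest thus depended on the processing. Among the 25 brightest the tumor sample was the lowest of this kind in 14. mouselincRNA0522-_P1, at 1347, 6052 and 3536 units for tumor, tumor-bearing and wild-type spleen, and mouselincRNA0543-_P1, at 785, 2707 and 1502 units, were of these 14. In 46 members tumor-bearing spleen lay at least 2-fold above both other samples, which were within 2-fold of each other, and in 5 it lay below. These were 18.0% and 1.95% of the 256 members, against 8.11% and 4.04% of all probes and 19.9% and 1.21% of humanlincRNA probes. Wild-type spleen stood apart in this way as the highest in 5 (1.95%, against 10% of all probes) and the lowest in 18 (7.03%, against 11.4%). Tumor did so in 3 (1.17%, against 2.86%) and 6 (2.34%, against 1.4%).

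**Figure D4:**
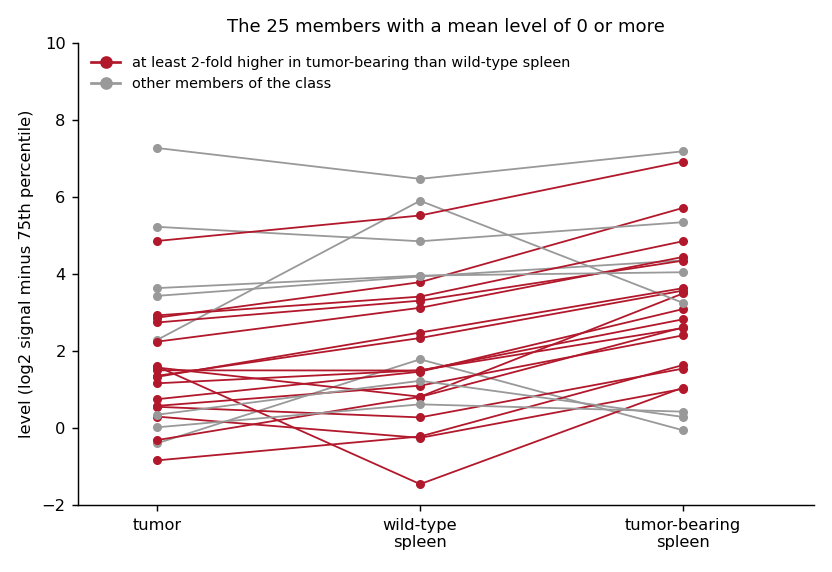
Level (log2 signal minus the 75th percentile) of the 25 members with a mean level of 0 or more on the tumor, wild-type spleen and tumor-bearing spleen arrays, with a line joining each member. The 17 members at least 2-fold higher in tumor-bearing than in wild-type spleen are coloured, and 14 of the 25 lie at least 2-fold lower in tumor than in tumor-bearing spleen.

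The 25 brightest members came from 24 loci, and 17 of them were - probes and 8 + probes. The probe for the other strand was well above background on all 3 arrays for 12 of them, on 2 arrays for 2, on 1 array for 3 and on none for 8. mouselincRNA0706 was the one locus with both strands in the class. At mouselincRNA0161 the + probe read 52.1, 74.6 and 24.99 units. It was dim but detected on every array, while the - probe was the brightest member.

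At a minority of the loci measured, the 2 strands lay 2-fold or more apart in their differences between samples. Both strands were measured at 55 loci between tumor and wild-type spleen, and at 17 of these (30.9%) the 2 log2 differences lay at least 2-fold apart. The counts were 25 of 57 (43.9%) between the spleens and 22 of 61 (36.1%) between tumor and tumor-bearing spleen. Across loci the differences of the + and the - probe had Pearson r of 0.21, -0.10 and -0.01 in these comparisons, as a description over points that share their arrays. No scaling by a constant can alter the gap between the strands of a locus, but normexp did. After normexp 8, 13 and 13 loci were at least 2-fold apart. How often probes of different loci lie this far apart was not computed, so the counts are not read as a trait of loci.

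Both strands passed 2-fold in the same direction at few loci. Between the spleens both were higher at 6 loci and both lower at 0, and at 4 the + probe was lower and the - probe higher. Between tumor and wild-type spleen both were higher at 1 locus, and at 0 loci did the strands pass 2-fold in opposite directions.

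At mouselincRNA1040 the strands differed in opposite directions between the spleens. Its + probe, given above, read 2380 units in wild-type spleen and 105 in tumor-bearing spleen, while its - probe read 294 units with tumor cells, 1588 with tumor-bearing spleen and 603 with wild-type spleen. The - probe lay 1.85 ± 0.35 above wild-type spleen, and the gap between the strands' log2 differences was -5.90. At mouselincRNA0706 the - probe read 771, 1489 and 849 units and differed by 1.27 ± 0.19 between the spleens, against -2.65 for the + probe. The gap was -3.91 there and -3.88 between tumor and wild-type spleen. After normexp the gap between the spleens was -5.18 at mouselincRNA1040 and -3.96 at mouselincRNA0706.

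Other loci had gaps between their strands at other levels, and after normexp most of each gap came from a single strand. Between the spleens the + probes of mouselincRNA1595 and mouselincRNA1188 then differed by -0.17 and -0.37, and their - probes by 1.96 and 1.26. At mouselincRNA1595 the - probe read 158, 747 and 204 units and the + probe 39.2, 27.2 and 78.5, a gap of -3.41 between the spleens (-2.13 after normexp). The - probe was highest and the + probe lowest in tumor-bearing spleen. At mouselincRNA1188 the gap was -3.30 between the spleens and 4.01 between tumor and tumor-bearing spleen, or -1.63 and 2.57 after normexp. At mouselincRNA1377 the - probe read 123, 137 and 195 units and stayed within 2-fold between all samples, while the + probe was higher in tumor-bearing spleen, for a gap of 2.71 (1.76 after normexp).

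Between tumor and wild-type spleen the strands of mouselincRNA0336 also separated. Its + probe read 100 units with tumor cells, 41.6 with tumor-bearing spleen and 58.4 with wild-type spleen, a tumor difference of 1.19 ± 0.52 against 4.16 for the - probe. The gap of -2.97 was -1.48 after normexp. At mouselincRNA1275 the + probe read 115, 98.0 and 25.7 units and differed by 2.58 ± 0.48 (1.33 after normexp), while the - probe, at 57.3, 51.9 and 69.8 units, differed by 0.13 ± 0.52.

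**Figure D5:**
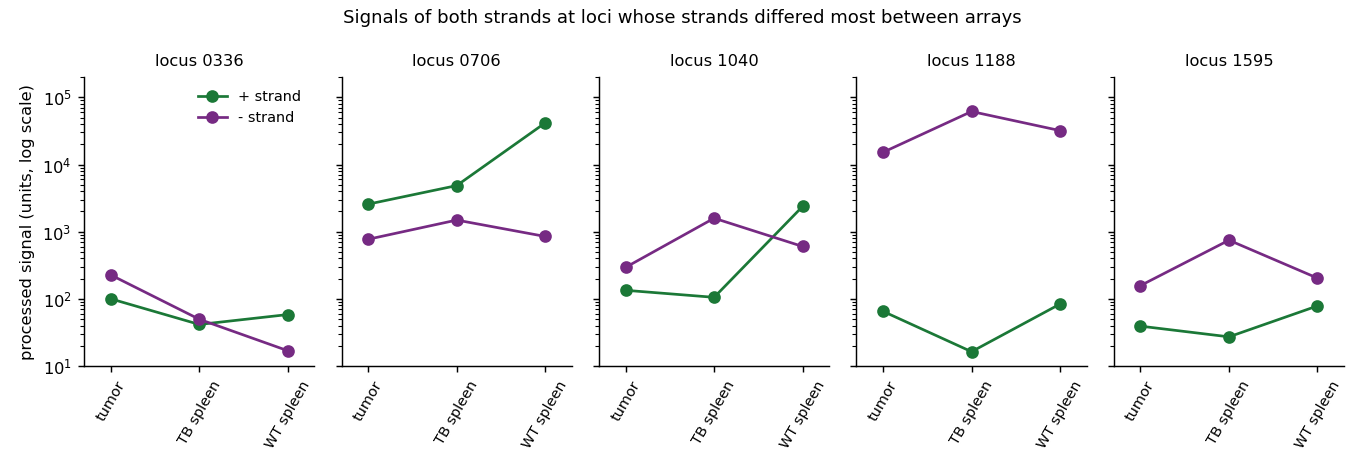
Processed signal in units (log axis, not scaled between arrays) of the + and the - probe on the tumor, tumor-bearing spleen (TB spleen) and wild-type spleen (WT spleen) arrays, for loci whose strands' differences lay far apart. At mouselincRNA1040 and mouselincRNA0706 the + probe is highest in wild-type spleen and the - probe is highest in tumor-bearing spleen.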

How the data were processed

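The deposited array files hold intensity values, which the authors extracted from a 1-colour Cy3 scan with Agilent Feature Extraction 11.0.1.1, per the file headers. Processed signals are background-subtracted and detrended, but not scaled between arrays. The multiplicative part of the detrending is recorded for the tumor and wild-type arrays but not for the tumor-bearing spleen array. The authors also deposited a table of log2 values of the same arrays, with no scaling stated in the labels or headers. Its highest value was 18.936 on every array, and its medians were 6.397, 6.396 and 6.397. Its results lay close to those of quantile normalization, so these alternatives are not separate. RNA was extracted with TRIzol and labelled with a T7 promoter primer kit, per the labels' protocols.

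From these, log2 processed signals minus each array's 75th percentile over 60890 probes usable on all 3 arrays were computed. Outlier-flagged spots (147) and control spots were left out, and 0 members were lost. A member was compared when well above background on both arrays. The spot error came from probes with at least 8 spots, 90% of them well above background. Alternatives were quantile normalization, the median of detected probes, the authors' table, normexp of median spot and background signals (offset 50), other filters and signals without detrending.

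Members and lists were chosen with earlier results of these data known. Members named are the 8 largest differences per direction and comparison, the 3 largest bounds, the 5 with the highest mean level, the 5 farthest apart on each array, the 5 loci with strands farthest apart and the 5 brightest loci with both strands detected, or fewer from the top. Level classes and control probes were chosen after values were seen. Steps were tested on simulated data. Tools were Python 3.11.15, numpy 2.4.6, pandas 2.3.3, matplotlib 3.10.9, R 4.3.3 and limma 3.58.1.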

Additional observations from a re-analysis of the deposited data

How the results depend on the processing

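Each group held 1 array, so no array could be left out, and the spot error covers technical spread alone. No paired analysis was possible because each group holds 1 array. Dim probes limit the counts. After normexp, 12 members were higher and 8 lower between tumor and wild-type spleen (median 0.19), 49 and 5 between the spleens (0.46), and 1 and 35 between tumor and tumor-bearing spleen (-0.24). With no filter on dim probes the counts were 87 and 63 (0.12), 177 and 72 (0.37), and 52 and 131 (-0.23), and the strands lay 2-fold apart at 128, 158 and 148 loci (8, 13 and 13 after normexp). Scaling to the median of detected probes gave 25 lower between tumor and wild-type spleen, and medians of -0.14 there and 0.45 between the spleens; it moved the median of all probes in the first from 0.02 to -0.13. The near-zero median between tumor and wild-type spleen also turned to -0.051 after quantile normalization and -0.012 without local background outliers. In the authors' table, whose results lay close to those of quantile normalization, it was -0.050. The cause of these turns was not tested. Of the 48 named differences, 35 stayed past 2-fold after normexp and 13 fell below it in the same direction. All 48 stayed past it under the other alternatives run. Those that only filter probes leave a member's value as it was, so they could not move it. Detection on all 3 arrays (256) and single-strand calls kept within 1.5 times under the alternatives run.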

Other observations

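The humanlincRNA probes of the array, 1104 in all, gave values close to those of the mouselincRNA probes. Between tumor-bearing and wild-type spleen 148 of 445 measured were at least 2-fold higher and 19 lower, with a median log2 difference of 0.69, and between tumor and tumor-bearing spleen the counts were 14 and 124 of 446 and the median -0.50. Among the 42 humanlincRNA probes with a mean level of 0 or more, the medians were 1.31 and -1.93. The 83 probes with the prefix MM9LINCRNAEXON had medians of 0.97 and -0.67. These sets share their arrays with the members, so the values are not independent of them.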
